A study of Solanum lycopersicum with 12 samples.

Results

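The loci described here are the 92, of 35976 in the deposited table, whose level in young tomato leaf was at least 4 times as high after a PSI-475 spray as after water. They were chosen from the leaf values themselves. The rule asked for a mean of at least 5 FPKM over the 3 treated leaf libraries and a mean in the 3 untreated leaf libraries of no more than 0.25 of it. FPKM counts sequenced fragments relative to the length of the locus and the size of the library, so levels can be compared between loci of different length. One locus that meets the rule, Solyc07g064160, was left out by the rule's own wording. Because leaf values made the choice, the leaf changes below are a description with no test, and the tests concern root.

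The series compared tomato plants (Solanum lycopersicum, genotype WT) sprayed on the leaves with PSI-475, a biostimulant, at 2.5 mL per L with plants that received water in its place. Every plant, controls included, was irrigated with 50 mM NaCl (5.8 dS per m). Plants were 65 days old at the first spray, salinity began 1 day later, a second spray came 27 days into it, and tissue was taken at 127 days, 2 h after the light period ended. Each of the 4 groups, water and spray in leaf and in root, held 3 libraries of 17108347 to 22993130 fragments. Separate plants or cultures are not mentioned for the replicates, and the p-values then reflect how much the 3 libraries of a group vary, which could be technical variation alone.

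Biostimulants are products given to plants to alter their growth or stress tolerance rather than to supply nutrients. Salt in the root zone makes water harder to take up and brings sodium and chloride into the plant, and roots and leaves meet it with largely different sets of active genes. The spray went on the leaves, so a change in root RNA after it concerns an organ that was not the one sprayed. Tissue was taken weeks after the second spray, so the young leaves sampled need not have been sprayed themselves. In bulk tissue, fewer cells of a type and less RNA per cell cannot be told apart, and this holds for each level given here.

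The files do not pair identifiers with gene names, and 0 of the 92 members were found in the RefSeq gene table for tomato assembly SLM_r2.1. Members are therefore described by level, tissue and place in the identifier series, and no function is given for any of them. Of the 92, 88 carried identifiers of the tomato locus scheme, which name the chromosome and number loci along it, 1 carried a non-coding RNA identifier and 3 were numbered loci of neither kind. With no names, tissue labels could not be checked against known markers. The 50 most abundant loci of untreated leaf among those under 1 FPKM in untreated root summed to 12250 to 19370 FPKM in leaf libraries and to 24.3 to 62.4 FPKM in root libraries. The 50 chosen the other way summed to 9995 to 13440 FPKM in root and 18.3 to 44.6 FPKM in leaf. The untreated libraries chose both lists, so only the treated ones are separate from the choice. In these the leaf loci summed to 17870 to 19370 FPKM in leaf and 38.7 to 62.4 FPKM in root. The root loci summed to 9995 to 10860 FPKM in root and 35.45 to 44.6 FPKM in leaf.

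**Figure D1:**
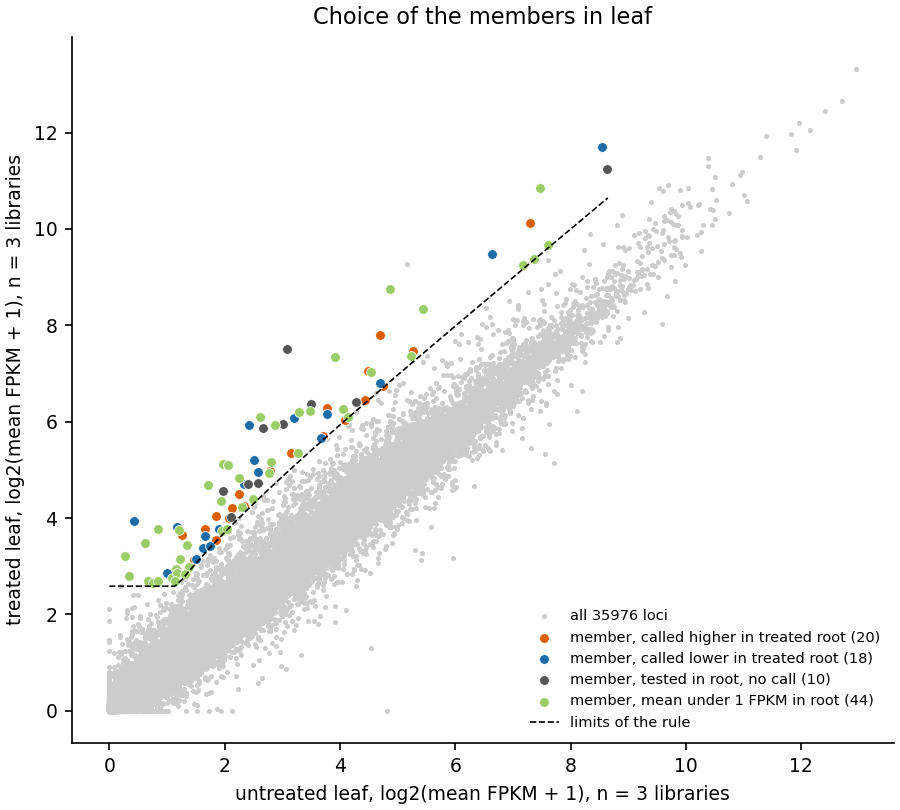
Mean level of every locus in untreated leaf (x axis) and treated leaf (y axis), both as log2(FPKM + 1) over 3 libraries. The 92 members lie above the dashed limits of the rule and are coloured by what they did in root, with 44 of them under 1 FPKM there. The uncoloured point well above the line is the locus left out by the rule.

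In leaf, the members ranged from faint to very abundant. Mean levels ran from 0.211 to 396 FPKM in untreated leaf, with a median of 4.32, and from 5.27 to 3321 FPKM in treated leaf, with a median of 28.4. The ratio of treated to untreated means ran from 4.02 to 40.6 with a median of 5.86, and 16 members had a ratio of at least 10. In all 92 the 3 treated libraries lay above the 3 untreated ones. Of all loci averaging 1 FPKM or more in leaf, 18.7% did so. Nothing is read from the members' count, since the rule chose them by the means of these same libraries. The lowest treated library was at least 3 times the highest untreated one in 84 members and under 2 times in 2. At the limits of the rule, the 2 members with the smallest ratios were at 4.017 and 4.035, and the nearest loci outside were at 3.9988 and 3.9901. The faintest members were at 5.27 and 5.47 FPKM in treated leaf, and the nearest loci below the level limit were at 4.98 and 4.38 FPKM.

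Together the members made up 0.288% ± 0.0133 (SD, n = 3) of all fragments in leaf in plants given water and 1.84% ± 0.0814 (SD, n = 3) in sprayed plants. A few abundant loci made up most of this. The 8 members with at least 500 FPKM in treated leaf held 66.1% ± 2.03 (SD, n = 3) of the members' fragments in untreated leaf and 65.1% ± 1.28 (SD, n = 3) in treated leaf. Another 11 were between 100 and 500 FPKM in treated leaf, 54 between 10 and 100, and 19 under 10.

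The steepest leaf rise was that of Solyc08g007240.3, a locus of 1676 bases on chromosome 8. It was at 0.182, 0.230 and 0.643 FPKM in untreated leaf and at 13.6, 14.5 and 14.8 FPKM in treated leaf, a ratio of means of 40.6. It rests on 6 to 21 fragments per untreated library. In root the order of the groups was the other way round, with 5.16, 5.96 and 5.33 FPKM in untreated and 1.30, 1.53 and 1.13 FPKM in treated libraries. The root fall was -1.48 on the log2(FPKM + 1) scale (SE 0.108, limma adjusted p = 4.43e-06).

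Next came Solyc03g005775.1, a short locus of 243 bases on chromosome 3. Its untreated leaf libraries were at 0, 0 and 0.634 FPKM and its treated ones at 7.62, 7.16 and 9.99 FPKM. With 3 fragments in untreated and 132 in treated leaf, the pooled ratio was 38.1 (95% exact interval 12.8 to 187, counting error only). In root it was at 0.722, 0.447 and 1.77 FPKM in untreated and at 0.461, 0.960 and 0.200 FPKM in treated libraries, which overlap. It was below the filter of the root test.

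The abundant members varied together between replicates, as the plot of levels in each library shows. Other abundant leaf loci were not ranked in this way, so this need not be particular to the members. Of the 8 members with at least 500 FPKM in treated leaf, 7 were lowest in untreated replicate 1 and 6 were highest in untreated replicate 3. Among the treated leaf libraries, 7 of the 8 were highest in replicate 1 and all 8 were lowest in replicate 2. The most abundant member, Solyc03g005760.1 (singled out after its values were seen), was at 344, 374 and 404 FPKM in untreated leaf and 3537, 3110 and 3317 FPKM in treated leaf. These shifts are small beside its ratio of means of 8.89. The 73 members under 100 FPKM were lowest in treated replicate 1 in 32 cases and in treated replicate 2 in 35.

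**Figure D2:**
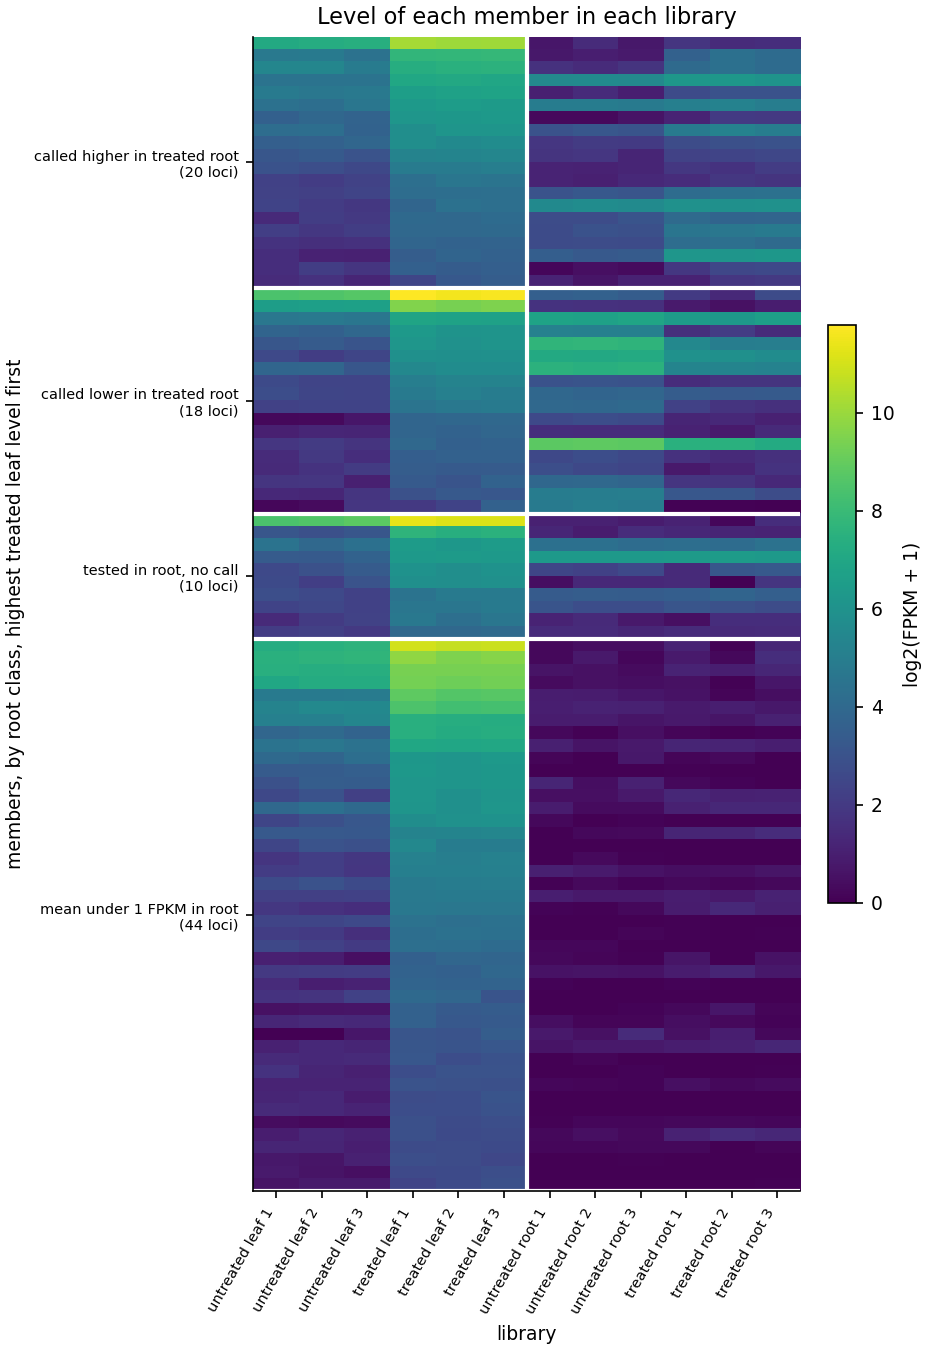
Level of the 92 members (rows) in the 12 libraries (columns) as log2(FPKM + 1), grouped by what they did in root and ordered by treated leaf level. The 44 members at the bottom average under 1 FPKM over the root libraries, and their highest value in 1 root library is 1.90 FPKM, while the 20 and 18 members at the top change in root in opposite directions.

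In root, the members were less often present than other loci of the leaf. A mean of at least 1 FPKM over the 6 root libraries, the filter of the root test, was reached by 48 of the 92, or 52.2%. Among all 13020 loci with at least 5 FPKM in treated leaf, 93.6% reached it. The median member was at 0.990 FPKM in untreated root and 1.34 FPKM in treated root. The members' share of the root fragments was 0.171% ± 0.00093 (SD, n = 3) in untreated and 0.140% ± 0.0045 (SD, n = 3) in treated libraries. The order of the groups turned when the 3 members with the most fragments in untreated root were set aside, a step chosen after the data were seen. These were Solyc01g096420.3, Solyc06g071820.3 and Solyc11g018777.1, and the other members held 0.0798% ± 0.0010 (SD, n = 3) of the root fragments in untreated and 0.109% ± 0.0031 (SD, n = 3) in treated libraries.

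The 44 members below the filter included abundant leaf loci. Their levels in treated leaf ran from 5.27 to 1858 FPKM with a median of 22.3, while their root medians were 0.136 FPKM in untreated and 0.203 FPKM in treated libraries. In 4 of them no fragment was found in any root library, which allows a level of up to 0.0656 to 0.872 FPKM depending on the length of the locus and the library (3 fragments in 1 library, counting error only). Of the 8 members with at least 500 FPKM in treated leaf, 4 were below the filter and none exceeded 3.36 FPKM in treated root or 0.185% of its treated leaf level. In treated root all 8 were lowest in replicate 2, the library in which the 50 leaf loci also had their lowest sum, 38.7 FPKM against 62.4 and 56.2 FPKM. The test with the filter of 1 FPKM did not cover the 44. With a filter of 0.5 FPKM it covered 18 of them, of which 7 rose and 2 fell, and with no filter 40, of which 9 rose and 2 fell (limma, adjusted over all loci then tested). Rises outnumbered falls over all loci too, at 49.2% against 24% with the filter of 0.5 FPKM and 37.9% against 20% with no filter.

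The 48 members that passed the filter split in root. In the limma test over all 18277 root loci past this filter, 20 members rose in treated root, 18 fell and 10 passed in neither direction (Benjamini-Hochberg adjusted p under 0.05). Over all loci tested, 52% rose and 24.5% fell, so root changes were common, and the members' shares were 41.7% and 37.5%. With median-of-ratios scaling 15 members rose and 20 fell, or 31.2% and 41.7%, so rises no longer outnumbered falls, while over all loci the shares were 36.1% and 34.8%. By at least 2-fold on the log2(FPKM + 1) scale, 11 members rose, or 22.9% against 12.3% of all loci, and 14 fell, or 29.2% against 10.2%. The median absolute log2 change was 1.06 over the members tested and 0.544 over all loci. The signed median was 0.049 for the members and 0.276 for all loci, a difference of -0.227. With median-of-ratios scaling the median of all loci went to 0.022 and that of the members to -0.120, a difference of -0.142. That difference was -0.151 without untreated root replicate 2, -0.130 without untreated root replicate 3, -0.129 with a filter of 0.5 FPKM and -0.063 with no filter. Members that pass the filter through 1 group alone had to differ between groups: 4 of the 20 that rose were under 1 FPKM in untreated root, and 2 of the 18 that fell were under 1 FPKM in treated root.

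**Figure D3:**
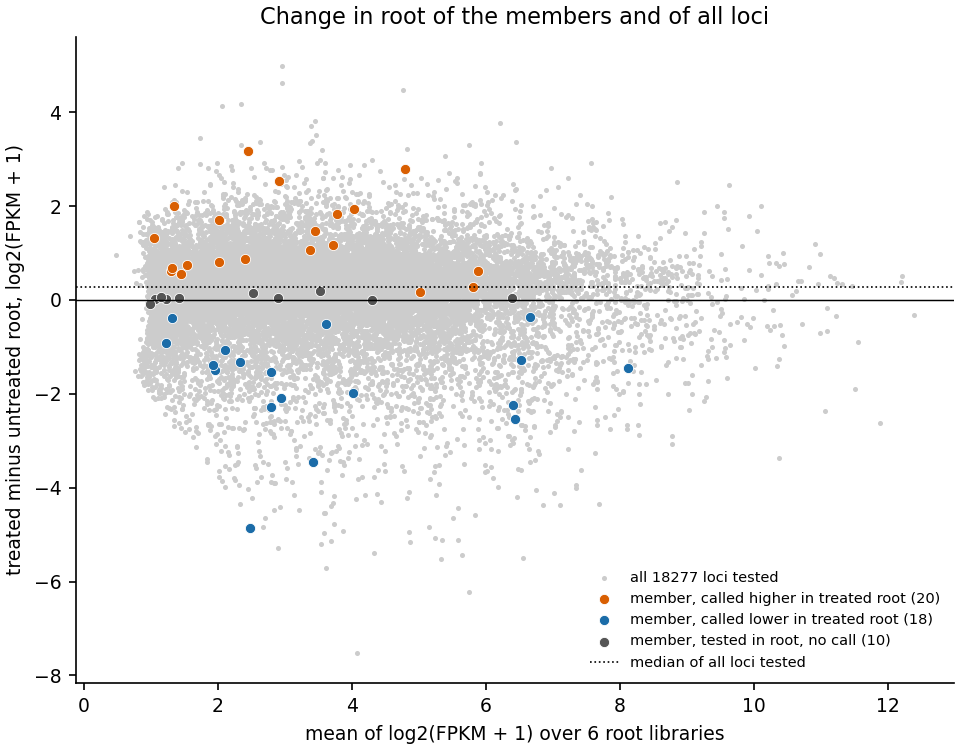
Change in root (y axis, treated minus untreated on the log2(FPKM + 1) scale) against mean root level (x axis) for the 18277 loci tested, with the 48 members coloured by call. The members reach from -4.85 to 3.17, and the dotted line is the median of all loci at 0.276.

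Of the 20 members that rose in root, 4 did so by at least 4-fold on the log2(FPKM + 1) scale. By the ratio of raw means, Solyc07g043460.3, Solyc12g009930.2 and Solyc09g008670.3 passed 4-fold as well, at 7.40, 4.99 and 4.23. Solyc02g069490.3, on chromosome 2, rose most. It was at 0.680, 1.01 and 0.802 FPKM in untreated root and 11.8, 19.2 and 16.3 FPKM in treated root, which is a rise of 3.17 on the log2(FPKM + 1) scale (limma, SE 0.167, adjusted p = 6.93e-07). It is one of the 4 that passed the filter through treated root alone, with an untreated root mean of 0.831 FPKM. In leaf it was at 26.5, 27.6 and 20.8 FPKM against 214, 220 and 232 FPKM. It remained a leaf locus in level, with treated root at 7.11% of treated leaf.

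Solyc05g005870.3, on chromosome 5, had its higher level in root. It was at 10.5, 8.72 and 9.29 FPKM in untreated root and 71.9, 69.8 and 74.1 FPKM in treated root, a rise of 2.80 on the same scale (limma, SE 0.0678, adjusted p = 1.28e-08). Untreated leaf was at 1.95, 1.16 and 1.09 FPKM and treated leaf at 10.2, 12.7 and 11.7 FPKM. The ratio of root to leaf was thus 6.78 in untreated and 6.23 in treated plants. In neither organ did the ranges of treated and untreated libraries meet. In root the choice of named loci required this, and in leaf all 92 members showed it.

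The others of this group rose by 0.17 to 2.54 in root on the log2 scale, with a median of 1.12 over the 20. On the deposited values, treated root libraries lay wholly above the untreated ones in 19 of the 48 members tested, or 39.6%, against 53.6% of all loci tested. In untreated plants 8 of the 20 were higher in root than in leaf by their means, and in treated plants 5 were. Treated root reached at least 10% of the treated leaf level in 14 of them and exceeded it in 5. The 50 leaf loci given above were far lower in root, in untreated plants by the way they were chosen. They summed to 26.1 FPKM on average in untreated root and 52.4 FPKM in treated root, or 0.210% and 0.282% of their sums in leaf, and 4 of these loci are themselves members. One member that rose in root, Solyc05g056070.3, had treated root at 0.185% of its treated leaf level. It was at 0.636, 1.77 and 0.716 FPKM in untreated root and 2.51, 1.76 and 1.94 FPKM in treated root. Its libraries overlapped, and its call (log2 change 0.62, limma adjusted p = 0.0266) was lost in 6 alternative settings. These were median-of-ratios scaling, quantile normalization, and leaving out untreated root replicates 1 or 3 or treated root replicates 1 or 3. The part of leaf-typical RNA in it was not tested.

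The 18 members that fell in root were mostly root loci in untreated plants. In untreated plants 16 of the 18 had a higher mean in root than in leaf, and in treated plants 1 of the 18 did. The leaf rise was set by the rule and the root fall by taking the members that fell, so this crossing is a description. Of all 92 members, 31.5% were higher in root than in leaf in untreated plants and 7.61% in treated plants. Over the 13020 loci with at least 5 FPKM in treated leaf the shares were 34% and 51.9%, and the treated leaf values in these shares are those the rule used. The median of the 18 went from 14.6 to 2.57 FPKM in root and from 4.22 to 27.6 FPKM in leaf. On the deposited values, treated root libraries lay wholly below the untreated ones in 18 of the 48 members tested, or 37.5%, against 25.6% of all loci tested.

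**Figure D4:**
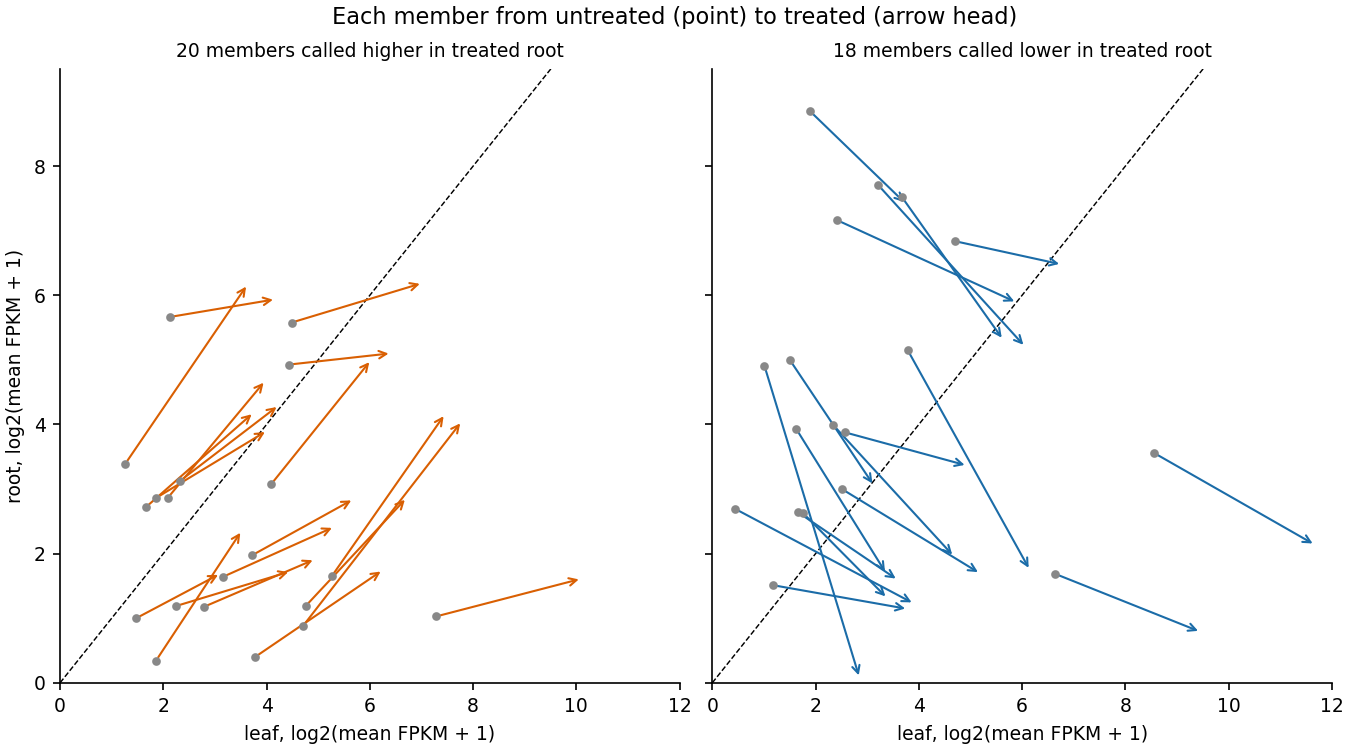
Mean level in leaf (x axis) and root (y axis), both as log2(FPKM + 1) over 3 libraries, of the 20 members that rose in root (left) and the 18 that fell (right). Each arrow runs from untreated to treated, and the dashed line marks equal levels, which 16 of the 18 falling members start above and 1 ends above.

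Solyc05g014590.3, on chromosome 5, fell most steeply. It was at 27.1, 31.5 and 28.7 FPKM in untreated root and at 0.0559, 0.0582 and 0 FPKM in treated root. These values rest on 1579 and 2 fragments, a pooled ratio of 811 (95% exact interval 224 to 6702, counting error only), and the log2 change was -4.85 (SE 0.0895, limma adjusted p = 4.09e-09). It is 1 of the 2 falling members that passed the filter through untreated root alone, with a treated root mean of 0.0380 FPKM. In leaf its groups lay closer together than those of any other member. It was at 0.153, 0.274 and 2.61 FPKM in untreated leaf and 2.93, 4.17 and 11.7 FPKM in treated leaf, where replicate 3 was the highest of each group. The lowest treated leaf library was 1.12 times the highest untreated one, and without treated replicate 3 the treated mean was 3.55 FPKM, below the 5 FPKM the rule requires.

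Solyc03g096780.1, a locus of 342 bases on chromosome 3, was lower in treated root and higher in treated leaf. It was at 34.9, 34.3 and 34.6 FPKM in untreated root and 1.97, 3.24 and 1.70 FPKM in treated root, a difference of -3.46 on the log2 scale (limma, SE 0.153, adjusted p = 2.64e-07). In leaf it was at 13.1, 11.1 and 14.1 FPKM against 80.4, 65.1 and 66.9 FPKM. The groups did not overlap in either organ. It and Solyc05g014590.3 were the 2 members that fell by at least 8-fold in root.

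**Figure D5:**
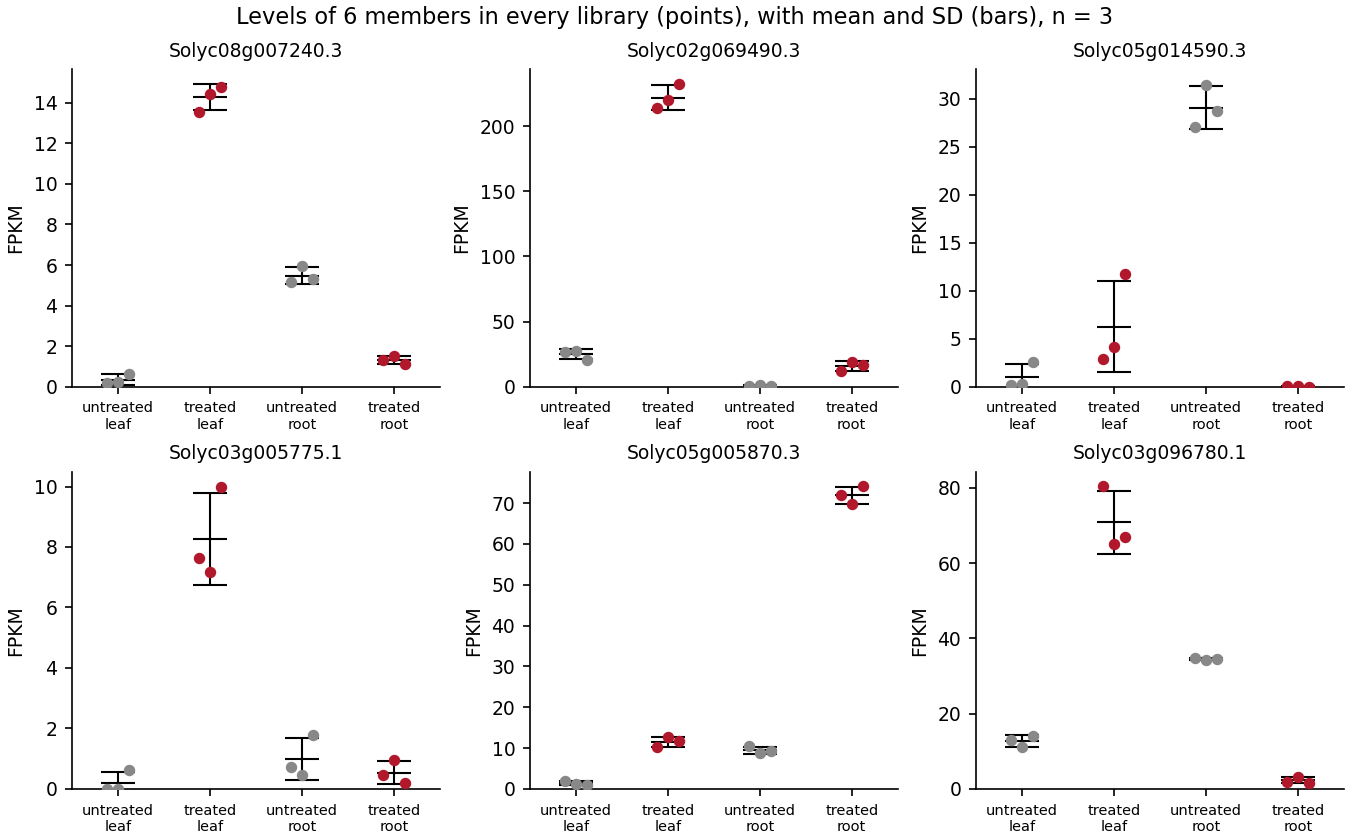
Level in FPKM (y axis) of 6 members in each library (points, n = 3 per group) with mean and SD (bars). The left column holds the 2 steepest leaf rises, the middle column the 2 steepest root rises and the right column the 2 steepest root falls, and the wide bar of Solyc05g014590.3 in treated leaf reflects a range of 2.93 to 11.7 FPKM.

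Several of the falling members were abundant in root and ended near the same level in both organs on deposited FPKM. No scaling between leaf and root was tried, and ratios of root to leaf depend on it. The loci in this paragraph were singled out after their values were seen. Solyc06g071820.3 was at 144, 138 and 145 FPKM in untreated root and 61.5, 59.4 and 52.7 FPKM in treated root (log2 change -1.28, SE 0.0607, limma adjusted p = 3.84e-07). In leaf it went from 5.09, 3.41 and 4.60 FPKM to 60.3, 58.2 and 60.4 FPKM. Root was thus 32.5 times leaf in untreated plants and 0.970 times leaf in treated plants. Solyc02g085310.3 went from 183 ± 10.3 to 38.1 ± 1.53 FPKM in root (SD, n = 3) while leaf went from 11.7 ± 3.31 to 49.3 ± 4.65 FPKM (SD, n = 3), so that its ratio of root to leaf went from 15.6 to 0.774.

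Solyc01g096420.3 was the most abundant member in root and the 1 falling member that stayed higher there. It went from 456, 465 and 457 FPKM to 180, 176 and 148 FPKM in root (log2 change -1.45, SE 0.0708, limma adjusted p = 4.57e-07), against 12.7 ± 1.69 FPKM (SD, n = 3) in treated leaf. The 2 falling members that were higher in leaf in untreated plants were Solyc03g005760.1 and Solyc07g063600.3, at 10.8 ± 0.944 and 2.22 ± 0.0725 FPKM in untreated root (SD, n = 3). They were at 3.36 ± 1.98 FPKM and 0.718 ± 0.247 FPKM in treated root (SD, n = 3), or 0.1012% and 0.1004% of their treated leaf levels. The non-coding RNA locus ENSRNA050029701, of 200 bases, also fell, from 31.1 ± 1.10 to 7.19 ± 1.40 FPKM (SD, n = 3).

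Among the 10 members with no call in root, the log2 changes ran from -0.079 to 0.19 with adjusted p from 0.073 to 0.966 in limma. Solyc01g103590.3 had the highest root level of these. It was at 83.3, 80.4 and 81.2 FPKM in untreated root and 84.7, 87.6 and 80.3 FPKM in treated root, a difference of 0.043 on the log2 scale (limma, SE 0.0442, adjusted p = 0.391), and the groups overlapped. In leaf it was at 9.58, 9.22 and 11.97 FPKM against 78.9, 84.5 and 83.1 FPKM. On deposited FPKM the treated leaf thus came to the level the root had in both groups.

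Members were found on all 12 numbered chromosomes. Chromosome 7 held 14 of the 88 with tomato identifiers, or 15.9%, against 7.70% of the loci with at least 5 FPKM in treated leaf, and the other chromosomes held 4 to 9 each. With locus numbers no more than 20 apart counted as neighbours, a limit chosen after the data were seen, 10 members formed 4 runs. Neighbouring loci can be near-identical copies, and reads of such copies may be split between them by the counting, so their levels are not fully separate measurements.

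The run on chromosome 3 held Solyc03g005760.1, Solyc03g005770.2 and Solyc03g005775.1. Their leaf ratios were 8.89, 15.3 and 39.1, and all 3 had lower means in treated than in untreated root. For Solyc03g005770.2, below the filter, root means were 0.805 ± 0.163 and 0.322 ± 0.198 FPKM against 28.1 ± 0.679 and 430 ± 37.1 FPKM (SD, n = 3) in leaf. The next lower locus in the identifier series, Solyc03g005750.3, is no member, and its means were 37.9 and 30.3 FPKM in leaf.

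The run on chromosome 7 held Solyc07g043460.3, Solyc07g043480.1 and Solyc07g043490.1, and all 3 had higher means in treated root too. Solyc07g043460.3 was at 0.217, 0.227 and 0.524 FPKM in untreated root and 1.25, 3.00 and 2.91 FPKM in treated root (log2 change 1.32, SE 0.234, limma adjusted p = 0.000971). It passed the filter through treated root alone, with an untreated root mean of 0.323 FPKM. Solyc07g043490.1 rose by 0.81 (SE 0.174, limma adjusted p = 0.00281), and Solyc07g043480.1, below the filter, was at 0.107 ± 0.0806 and 1.14 ± 0.350 FPKM (SD, n = 3). The next locus, Solyc07g043500.1, fell short of the rule with a leaf ratio of 3.07 and rose in root from 1.30 ± 0.482 to 9.23 ± 2.18 FPKM (SD, n = 3; log2 change 2.15, SE 0.198, limma adjusted p = 1.82e-05).

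The other 2 runs were pairs on chromosomes 4 and 5. Solyc04g049670.3 and Solyc04g049677.1 went from 29.4 ± 1.22 to 33.4 ± 2.99 FPKM and from 9.82 ± 0.331 to 11.4 ± 1.25 FPKM in root (SD, n = 3). The call on the former (log2 change 0.17, limma adjusted p = 0.0494) was lost in 13 of 17 alternative settings, 5 of which left out 1 library each, untreated root replicates 1, 2 or 3 or treated root replicates 1 or 2. Solyc05g056050.3, the partner of Solyc05g056070.3, was at 0.205 ± 0.165 and 0.0708 ± 0.0618 FPKM in root against 14.0 ± 1.72 and 161 ± 9.09 FPKM (SD, n = 3) in leaf.

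Locus length, recovered from the digits of the FPKM values, had a median of 1223 bases over the members and 1633 bases over the loci with at least 5 FPKM in treated leaf. It ran from 171 to 8961 bases, and 7 members were under 300 bases, where few fragments lie behind a given FPKM. Members that rose in root had a median length of 1702 bases and those that fell 999 bases.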

How the data were processed

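RNA was taken from 30 mg of young leaf or root, per the labels. The 12 libraries form 4 groups of 3. The deposited values are FPKM made by the authors. Tools named in the submitters' processing notes are fastp, featureCounts and DESeq2, while the aligner, the build, the gene models and any use of strand are not given there. Each column's name matched 1 sample. Fragments, locus lengths and library totals were recovered from the digits of the values, and 100% of values came out whole within 0.001. Lengths can be too small where all counts of a locus had a common divisor.

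The members were found by the rule on raw leaf means. Root was tested with limma (version 3.58.1, R 4.3.3) after taking log2 of FPKM + 1, a scale on which changes of low loci look smaller than they are. The test was 2-sided with a mean-variance trend. It covered every locus whose root mean reached 1 FPKM, and p-values were adjusted over all of them by Benjamini-Hochberg, with calls under 0.05. The procedure was run on simulated fragments with 200 changed loci, far fewer than were called in root here. That setting cannot show how the calls behave when most loci are called. The members and lists were chosen with earlier results of these data known. Planned lists by gene name could not be formed without names. The rule for named loci took the 2 steepest rises in leaf and the 2 steepest called rises and falls in root, with tomato identifiers and root groups that do not overlap. Other loci were singled out after their values were seen. Figures were drawn with matplotlib 3.10.9.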

Additional observations from a re-analysis of the deposited data

Results flagged for a closer look

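In 21 members every treated leaf library lay above and every treated root library below the untreated ones. They are the 18 that fell in root in the limma test and 3 below its filter. Their opposite movement was not tested as a difference between organs, because the leaf values chose them. The steepest were Solyc05g014590.3, with a root log2 change of -4.85, and Solyc03g096780.1, with -3.46. In leaf all 92 members lay this way under the rule, so the count rests on root. There treated libraries lay wholly below in 18 of the 48 members tested, or 37.5%, against 25.6% of all loci tested. These shares were taken on the deposited values only. With median-of-ratios scaling, 41.7% of the members tested and 34.8% of all loci fell in the limma test.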

How the results depend on the processing

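The counts of 20 rises and 18 falls among members stayed within 1.5 times under all 17 alternatives of the root test, at 15 to 27 rises and 17 to 20 falls, and 15 of the rises and 17 of the falls were called in every one. These counts are of unlike totals, with 48 members tested in the main fit, 60 with TPM rescaling, 66 with a filter of 0.5 FPKM and 88 with no filter. The 27 rises came with no filter, where 37.9% of all loci rose. The members' median root log2 change of 0.049 moved to 0.121 with a filter of 0.5 FPKM, -0.120 with median-of-ratios scaling, -0.056 with quantile normalization and 0.132 with TPM rescaling. When 1 root library was left out it ran from 0.037 to 0.152. It stayed below the median of all loci in each setting, so its sign depends on scaling and its place below that median did not. With median-of-ratios scaling 36.1% of all root loci rose and 34.8% fell, against 52% and 24.5% as deposited. The labels do not say that replicate numbers pair the root libraries. Deviations of same-numbered libraries correlated at -0.00936, 0.00522 and 0.0426, which with 3 libraries per group cannot exclude pairing. The members' share of root fragments, treated minus untreated, was -0.0311 percentage points with all members and 0.0293 without the 3 members most abundant in untreated root, an alternative chosen after the data were seen. With a replicate block 20 members rose and 17 fell. The rule gave 171 loci at 3-fold and 42 at 6-fold in place of 92. Without 1 leaf library it gave 86 to 106, and 73 of the 92 stayed members whichever was left out. Depth limits the 44 members under 1 FPKM in root, whose most covered root library had a median of 9 fragments.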
